A study of Mus musculus with 54 samples.

Results

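The 9 genes described here mark the stroma of the theca, across the sides of single mouse follicles: Dcn, Lum, Ogn, Bgn, Mgp, Fbn1, Pdgfra, Pdgfrb and Tcf21. They were picked by symbol, as markers of the fibroblast-like cells of the theca together with the small proteoglycans these cells secrete, and all 9 had a row among the 25149 genes of the count and TPM tables. Any count at all was found for 22138 of them, including all 9.

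Follicles were isolated by enzyme from CD-1 mice aged 14 to 16 days, grown for 8 days in alginate hydrogel and then kept for 12 h in maturation medium with or without human chorionic gonadotropin (hCG), a hormone that acts on the luteinizing hormone receptor and triggers ovulation. Each follicle was then cut, and its sides were sequenced with Smart-Seq2, a full-length cDNA protocol for small amounts of RNA. The group unrupture_nohCG held 15 libraries of the putative unruptured side without hCG, rupture_nohCG held 14 of the putative ruptured side without hCG, unrupture_hCG held 12 of the unruptured side post-hCG, and rupture_hCG held 13 of the ruptured side post-hCG. The medium of all 4 groups held serum, EGF and recombinant FSH. Without hCG no rupture had occurred, so the sides of these follicles are putative. As limits of the model, enzymatic isolation strips much of the theca, which grows back during culture, and the labels do not tie 2 sides to 1 follicle. They do give each library a code of a letter and a number: libraries without hCG had the letters F to H and those with hCG B to D, and in each medium the unruptured libraries came before the ruptured ones, with the letter G or C holding both sides. What the letters stand for is not stated, and medium and letter cannot be told apart. In the labels the tissue is given as cumulus-oocyte complex, but according to the study's methods these complexes were taken out. The summed TPM of 8 oocyte markers passed 1 in 9 of 54 libraries, with a highest value of 157 in replicate 1 of the putative unruptured side and a next highest of 25.5. That of 10 granulosa markers was at least 945 in every library. Total counts per library ran from 1497138 to 2834794, with a median of 2157135. The group medians were 2362993 for unrupture_nohCG, 1744948 for rupture_nohCG, 2134115 for unrupture_hCG and 2192224 for rupture_hCG. Raw counts and numbers of libraries with a count are therefore not at equal depth between groups.

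The theca is the connective tissue shell that forms around a growing follicle outside its basement membrane. It holds steroid-producing cells, fibroblast-like cells, smooth muscle and vessels, and the granulosa cells lie inside that membrane. Small leucine-rich proteoglycans are short secreted core proteins, most with glycosaminoglycan chains, that bind collagen and set how its fibrils assemble. Among the 9 genes, Dcn (decorin), Bgn (biglycan), Lum (lumican) and Ogn (osteoglycin) belong to this family. Mgp encodes matrix Gla protein, a secreted inhibitor of calcification, and Fbn1 encodes fibrillin-1, the main building block of microfibrils. Pdgfra and Pdgfrb encode the receptors for platelet-derived growth factors, the first typical of fibroblast-like mesenchyme and the second of mural cells and fibroblasts. Tcf21 encodes a basic helix-loop-helix transcription factor of mesenchymal cells that binds E-boxes.

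Positions are those of GRCm38, where GENCODE lists all 9 genes as protein-coding. Dcn (chromosome 10, 97479609 to 97518143, + strand) and Lum (chromosome 10, 97565128 to 97572703, + strand) are neighbours with 46984 bases between them, and Tcf21 lies on the same chromosome (22817281 to 22820174, − strand). Ogn lies on chromosome 13 (49608046 to 49624501, + strand), Bgn on chromosome X (73483602 to 73495933, + strand), Mgp on chromosome 6 (136872435 to 136875823, − strand), Fbn1 on chromosome 2 (125300594 to 125507993, − strand) and Pdgfra on chromosome 5 (75152292 to 75198215, + strand). RefSeq promoters of GRCm38.p6, from 250 bases before to 50 bases after the start of transcription, were at hand for Ogn, Bgn, Fbn1, Pdgfra and Tcf21. Those of Bgn, Fbn1 and Pdgfra are printed because these genes formed the most closely co-varying pairs in the libraries without hCG (Bgn with Fbn1 and Bgn with Pdgfra). Capitals mark CAGCTG, the palindromic E-box that TCF21 binds.
Bgn promoter, chrX:73483351-73483650, + strand: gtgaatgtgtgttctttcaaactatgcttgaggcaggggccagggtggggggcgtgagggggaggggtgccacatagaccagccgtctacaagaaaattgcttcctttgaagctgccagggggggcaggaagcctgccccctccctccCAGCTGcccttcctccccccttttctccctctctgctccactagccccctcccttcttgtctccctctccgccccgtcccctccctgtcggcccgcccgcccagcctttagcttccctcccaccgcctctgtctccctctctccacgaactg
Fbn1 promoter, chr2:125506389-125506688, − strand: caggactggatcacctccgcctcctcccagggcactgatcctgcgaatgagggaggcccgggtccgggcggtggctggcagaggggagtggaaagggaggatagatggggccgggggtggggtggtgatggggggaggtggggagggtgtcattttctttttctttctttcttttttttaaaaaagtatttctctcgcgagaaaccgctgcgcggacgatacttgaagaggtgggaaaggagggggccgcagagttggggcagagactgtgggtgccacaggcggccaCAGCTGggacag
Pdgfra promoter, chr5:75152001-75152300, + strand: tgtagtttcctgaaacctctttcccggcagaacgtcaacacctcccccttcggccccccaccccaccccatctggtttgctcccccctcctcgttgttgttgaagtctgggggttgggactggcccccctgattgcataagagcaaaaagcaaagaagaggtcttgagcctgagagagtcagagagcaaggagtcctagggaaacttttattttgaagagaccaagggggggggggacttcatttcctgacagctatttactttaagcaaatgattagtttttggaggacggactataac

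The Bgn window held CAGCTG at −102 from the start of transcription and the Fbn1 window at 39 after it, and the Pdgfra window held none. The Fbn1 window lies inside the gene as GENCODE draws it, which on the − strand begins at 125507993. The start used for Fbn1 is thus downstream of that one. Ogn, not printed, held CAGCTG at −162, while Tcf21 held none. Both strands were searched for the TATA box (TATAAA), the cAMP response element (TGACGTCA), the AP-1 site (TGANTCA), this E-box and the SF-1 site (AAGGTCA), with no other match in the 5 windows but 2 overlapping TATA boxes in Ogn, on opposite strands. Of 32851 mouse promoters of the same length, 16.3% held this E-box, 13.6% the TATA box, 1.79% the cAMP response element, 7.81% the AP-1 site and 4.72% the SF-1 site. The GC content was 63.7% for Bgn, 60.3% for Fbn1 and 51.0% for Pdgfra, against a median of 52.7% over all promoters.

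Levels are given as TPM, which scales counts by transcript length and library, so that genes can be compared. Libraries are placed above or below a median in TPM too, unless another scale is named. Mgp, Dcn and Bgn made up nearly all of the summed level of the 9 genes. On the putative unruptured side they held 42.3%, 28.0% and 25.0% of the summed mean TPM, and there Mgp ranked 514th, Dcn 707th and Bgn 768th among the 25149 genes. No other of the 9 held over 1.51%, the share of Lum. The sum of all 9 was highest on the putative unruptured side (lowest 28.9, median 212, highest 486 TPM). It was 2.19, 19.6 and 237 TPM in the same order on the putative ruptured side, 7.07, 48.0 and 165 TPM on the unruptured side post-hCG, and 2.24, 4.89 and 21.2 TPM on the ruptured side post-hCG. The ranges of neighbouring groups overlapped, while the lowest putative unruptured library lay above the highest of the ruptured side post-hCG. Single libraries stood out in each group: replicate 7 was highest and replicate 14 lowest on the putative unruptured side, replicate 1 highest and replicate 8 lowest on the putative ruptured side, replicate 4 highest and replicate 8 lowest on the unruptured side post-hCG, and replicate 13 highest on the ruptured side post-hCG.

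**Figure D1:**
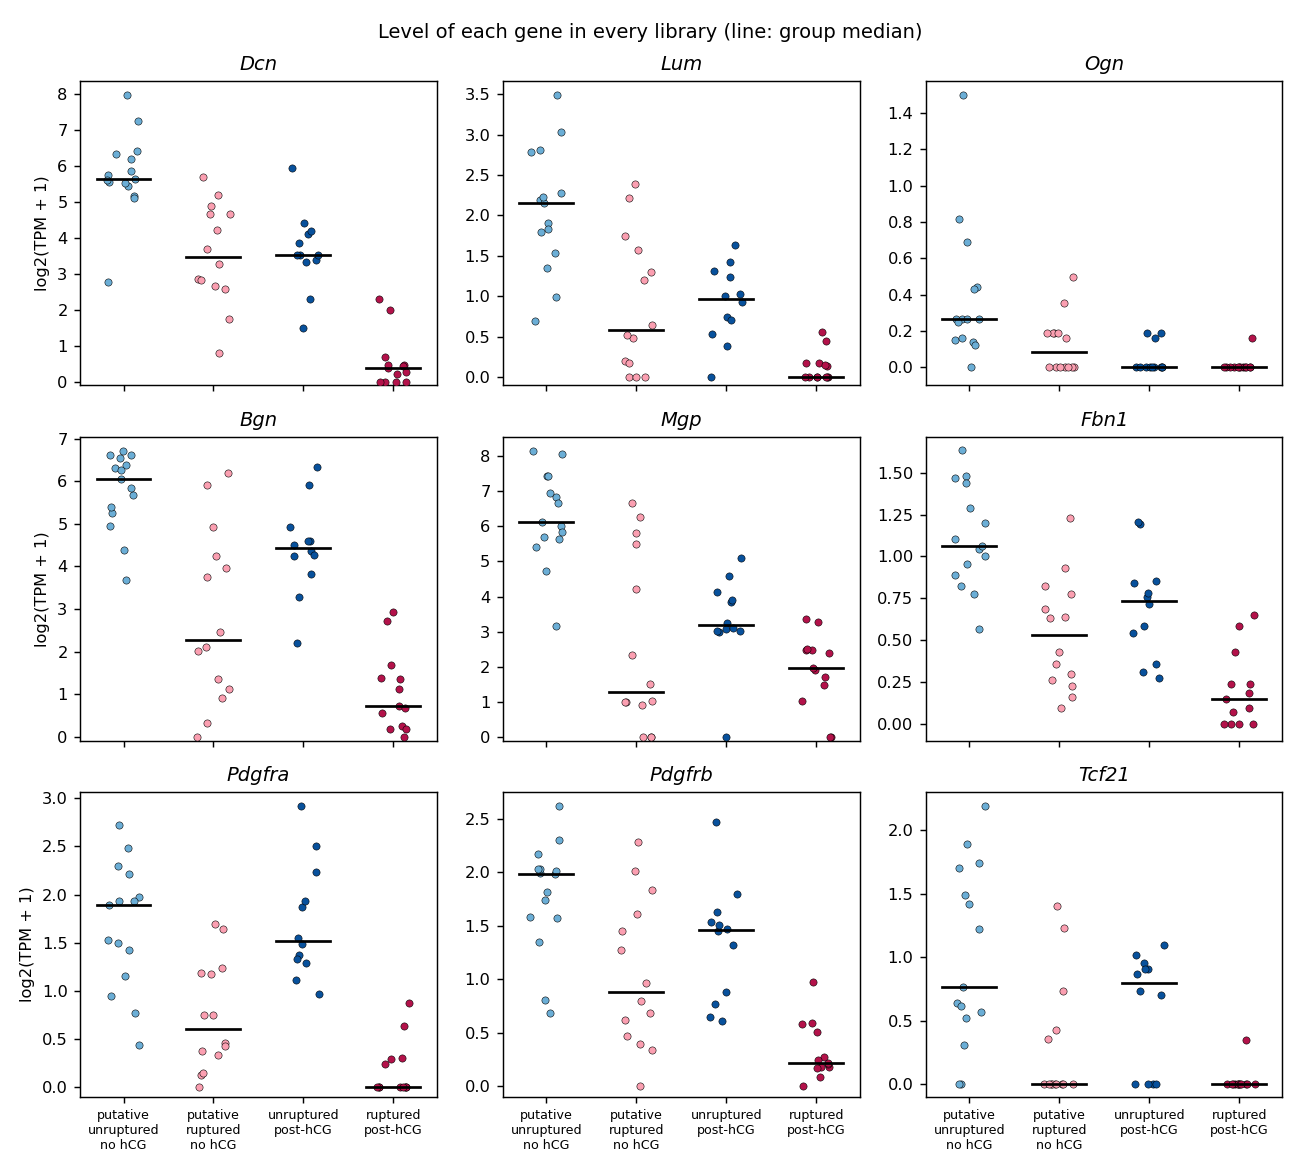
Level of the 9 genes in every library, as log2(TPM + 1) on a scale of its own for each gene, with 1 point per library, the 4 groups along the horizontal axis and a line at the group median. The ruptured side post-hCG had the lowest median for Dcn, Bgn, Fbn1, Lum, Pdgfra and Pdgfrb, and for Pdgfra its highest library in TPM (0.83 TPM) lay below the lowest of the unruptured side post-hCG (0.96 TPM).

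Among the proteoglycans, Dcn had a lowest, median and highest level of 5.88, 48.9 and 248 TPM for the putative unruptured side and of 0.75, 10.2 and 51.2 TPM on the putative ruptured side. Post-hCG these were 1.80, 10.6 and 61.1 TPM on the unruptured side and 0, 0.31 and 3.96 TPM on the ruptured side, where 4 of 13 libraries had no Dcn count. Decorin transcripts were thus highest on the putative unruptured side, and the next groups in order, the unruptured side post-hCG and the putative ruptured side, differed by less than their SD in log2(TPM + 1). Bgn had 11.9, 65.3 and 104 TPM on the putative unruptured side, 0, 3.89 and 72.8 TPM on the putative ruptured side, 3.58, 20.6 and 80.1 TPM on the unruptured side post-hCG, and 0, 0.64 and 6.58 TPM on the ruptured side post-hCG. Its putative ruptured libraries were the most uneven of the 4 groups, with 72.8 and 59.6 TPM in replicates 1 and 5 and under 5 TPM in 8 of 14. Lum was far lower, with 0.62, 3.45 and 10.2 TPM on the putative unruptured side, 0, 0.51 and 4.24 TPM on the putative ruptured side, 0, 0.96 and 2.11 TPM on the unruptured side post-hCG, and a highest value of 0.48 TPM on the ruptured side post-hCG. Ogn was at the edge of detection, with 48, 10, 3 and 1 counts in all over the 15, 14, 12 and 13 libraries of these groups.

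Mgp did not keep this order at the group medians. It had 7.93, 68.9 and 281 TPM for the putative unruptured side and 0, 1.48 and 99.3 TPM on the putative ruptured side. Post-hCG it had 0, 8.12 and 33.6 TPM on the unruptured side and 0, 2.92 and 9.25 TPM on the ruptured side. On the ruptured side the median was thus higher post-hCG while the maximum was higher without hCG, and Mgp was 54.2% of the summed mean TPM of the 9 genes on the ruptured side post-hCG. These are small numbers: the median library held 1.5 Mgp counts on the putative ruptured side and 3 counts on the ruptured side post-hCG. Fbn1, a long transcript at low TPM, had 0.48, 1.09 and 2.10 TPM on the putative unruptured side, 0.07, 0.45 and 1.34 TPM on the putative ruptured side, 0.21, 0.67 and 1.31 TPM on the unruptured side post-hCG, and 0, 0.11 and 0.57 TPM on the ruptured side post-hCG. Its putative unruptured libraries were the most even of any of the 9 genes in any group, with a coefficient of variation of 38.3%.

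The receptors differed on the unruptured side in how their mean log2(TPM + 1) followed the medium. It was 1.68 without and 1.71 with hCG for Pdgfra, and 1.78 and 1.34 for Pdgfrb. Pdgfra had 0.35, 2.70 and 5.58 TPM for the putative unruptured side and 0.96, 1.87 and 6.55 TPM on the unruptured side post-hCG, so its median was lower with hCG. Pdgfra had 0, 0.53 and 2.24 TPM on the putative ruptured side and 0, 0 and 0.83 TPM on the ruptured side post-hCG, where 8 of 13 libraries had no count. Pdgfrb (chromosome 18, 61045150 to 61085061, + strand) had 0.60, 2.96 and 5.13 TPM on the putative unruptured side, 0, 0.85 and 3.85 TPM on the putative ruptured side, 0.52, 1.75 and 4.54 TPM on the unruptured side post-hCG, and 0, 0.16 and 0.96 TPM on the ruptured side post-hCG. Tcf21 was detected in 13 of 15 putative unruptured libraries (76 counts in all), 5 of 14 putative ruptured (14 counts), 8 of 12 unruptured post-hCG (23 counts) and 1 of 13 ruptured post-hCG (1 count).

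The sides without hCG were compared to see whether the walls differ when the ovulatory stimulus is left out of the 12 h in maturation medium. Dcn, Lum, Bgn, Mgp, Fbn1 and Pdgfra were all lower in the putative ruptured libraries, by log2FC of between −1.44 and −2.13. In bulk samples, fewer stromal cells and less RNA per cell cannot be told apart. Counts were tested with edgeR's quasi-likelihood F-test after its expression filter, with Benjamini-Hochberg FDR over all genes tested, and log2FC is the putative ruptured minus the putative unruptured side. In this comparison 17.8% of all 9063 tested genes passed an FDR of 0.05, and 8.96% were lower on the putative ruptured side. The log2FC was −2.12 for Dcn (SE 0.46, FDR = 0.00141), −1.93 for Bgn (SE 0.58, FDR = 0.0179) and −1.61 for Lum (SE 0.47, FDR = 0.0159). These are the collagen-binding proteoglycans, and 13, 13 and 12 of the 14 libraries of that side were under the median of the other. Mgp had a log2FC of −2.13 (SE 0.60, FDR = 0.0117) and Fbn1 of −1.44 (SE 0.30, FDR = 0.000731). For Pdgfra it was −1.65 (SE 0.41, FDR = 0.00436), and each of the 14 libraries of that side was under the median of the other. Pdgfrb, at −0.91 (SE 0.35, FDR = 0.0723), did not pass. Without 1 of 4 libraries it did, with an FDR of 0.0433 without replicate 1 of the putative unruptured side and of 0.0253, 0.0365 and 0.0401 without replicates 1, 5 and 12 of the putative ruptured side. It also passed with all 4 groups in one fit (FDR = 0.0393) and with limma on log2(TPM + 1) (FDR = 0.0213) or log2(TPM + 0.1) (FDR = 0.0241).

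Of the 9 genes, 7 were tested, since Ogn and Tcf21 were under the filter, and a gene can pass this filter through the group where it is high. With no filter, which tests all 9, Tcf21 had a log2FC of −1.84 (SE 0.60, FDR = 0.0477) and Ogn of −1.63 (SE 0.55, FDR = 0.0582), and 7 of 9 were lower. Under that setting 8.49% of 20998 genes passed, 4.55% lower. The median log2FC of the 9 was −1.67, and that of all genes −0.04. The ranges of all 9 genes overlapped between these sides. Among the libraries of the letter G, 5 of each side, the means of all 9 genes were lower on the putative ruptured side too, by smaller differences. In log2(TPM + 1) these were −1.16 for Dcn against −2.22 over all libraries, −1.84 against −2.97 for Bgn and −0.51 against −0.95 for Pdgfra. Fbn1 (−0.23 against −0.58) and Tcf21 (−0.18 against −0.71) shrank most for their size. All are given as values with no test.

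After hCG, the sides of follicles that had been induced to ovulate were compared. Dcn, Bgn, Pdgfra and Pdgfrb were lower on the ruptured side, and 21.4% of 8585 genes passed, 11.3% lower. The log2FC was −4.08 for Dcn (SE 0.53, FDR = 1.18e-06), −4.01 for Bgn (SE 0.48, FDR = 3.59e-07), −3.93 for Pdgfra (SE 0.51, FDR = 1.26e-06) and −2.33 for Pdgfrb (SE 0.36, FDR = 1.67e-05). For each of these 4 genes every one of the 13 ruptured libraries was under the median of the unruptured side. In TPM the Pdgfra groups did not overlap, as for 1.03% of the genes tested, while in CPM, where this held for 0.431%, ruptured replicates 4 (6.59 CPM, 16 counts) and 13 (5.24 CPM, 10 counts) lay above unruptured replicate 8 (3.15 CPM, 6 counts). For Pdgfrb 12 of 13 ruptured libraries lay below the lowest unruptured library in TPM and 10 in CPM, and for Dcn and Bgn 11 of 13 did on both scales. The ruptured libraries that reached into the unruptured range of TPM for Dcn were replicate 13 (3.96 TPM) and replicate 4 (3.02 TPM).

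The other 5 genes were under the filter, and the 4 that passed did so through the unruptured libraries, since their median on the ruptured side was 0 to 3 counts. With no filter, Lum had a log2FC of −2.78 (SE 0.50, FDR = 0.000103), Fbn1 of −1.89 (SE 0.37, FDR = 0.000246) and Mgp of −1.60 (SE 0.40, FDR = 0.00441), and 8 of 9 genes were lower, where 10.8% of 20349 genes passed and 6.34% were lower. Tcf21, the eighth, had 23 counts on the unruptured and 1 on the ruptured side, a ratio of 26.2 after scaling to the totals (95% exact interval 4.26 to 1081, counting error only). Ogn had 3 and 1 counts, a ratio of 3.42 (0.275 to 180), and its FDR was 0.527. Among the libraries of the letter C, 4 unruptured and 5 ruptured, the difference in mean log2(TPM + 1) was −2.95 for Dcn (−3.07 over all libraries), −3.42 for Bgn (−3.36) and −1.45 for Pdgfra (−1.53).

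**Figure D2:**
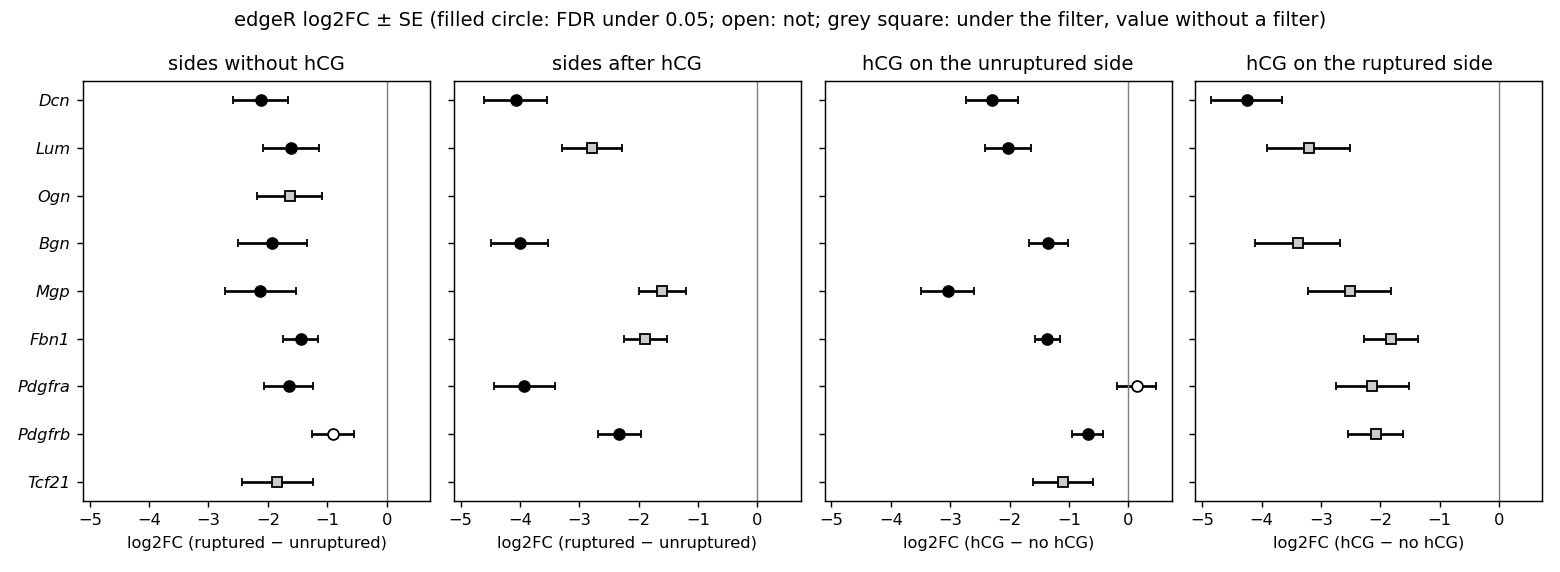
Log2FC ± SE from edgeR for the 9 genes in 4 comparisons, with the sides on the left (ruptured minus unruptured) and the media on the right (hCG minus no hCG). Filled circles passed an FDR of 0.05, open circles did not, and grey squares are genes under the filter, fitted without it; genes with 3 or fewer counts in a group have no point. Pdgfra on the unruptured side is the value nearest 0, at 0.14.

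The media were compared to see what 12 h of hCG changed on each side. On the unruptured side Mgp, Dcn, Lum, Fbn1, Bgn and Pdgfrb fell and Pdgfra had a log2FC of 0.14 (SE 0.32, FDR = 0.735). Here 53.1% of 9320 genes passed, 27.7% lower with hCG. Mgp fell most of the 7 genes tested, with a log2FC of −3.04 (SE 0.45, FDR = 9.49e-07), and its 12 libraries with hCG all lay below the median without hCG. Dcn followed with −2.30 (SE 0.44, FDR = 5.88e-05), Lum with −2.03 (SE 0.38, FDR = 4.58e-05), Fbn1 with −1.37 (SE 0.21, FDR = 2.38e-06) and Bgn with −1.35 (SE 0.33, FDR = 0.000991). Pdgfrb had −0.68 (SE 0.26, FDR = 0.0256), and 11 of 12 libraries with hCG lay below the median without it, but it did not pass with all 4 groups in one fit (FDR = 0.0805) or with limma on log2(TPM + 1) (FDR = 0.0727). The sign of the Pdgfra difference was not stable: it was −0.17 without replicate 4 of the unruptured side post-hCG and −0.06 when counts were scaled by library totals only. That scaling moved the median log2FC of all genes from −0.03 to −0.25, so the Pdgfra value stayed above the median of all genes under both. Ogn had 48 counts without and 3 with hCG, a ratio of 11.8 (95% exact interval 3.82 to 59.4, counting error only). With no filter 7 of 9 genes fell, where 29.5% of 20960 genes passed and 15.9% fell, and Tcf21 had a log2FC of −1.10 (SE 0.51, FDR = 0.103).

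On the ruptured side Dcn alone passed the filter. Dcn did so through the libraries without hCG, with a median of 47.5 counts there and 2 counts with hCG. It fell with hCG by a log2FC of −4.25 (SE 0.59, FDR = 2.33e-07), all 13 libraries with hCG lay below the median without it, and 60.1% of 8531 genes passed, 30.4% lower. With no filter all 9 genes fell, where 33.7% of 20569 genes passed and 17.8% fell. Bgn then had −3.39 (SE 0.72, FDR = 0.000192), Lum −3.21 (SE 0.69, FDR = 0.000251), Pdgfra −2.13 (SE 0.62, FDR = 0.00588), Pdgfrb −2.08 (SE 0.46, FDR = 0.000363) and Fbn1 −1.81 (SE 0.46, FDR = 0.00147). For Mgp the fitted value was −2.52 (SE 0.70, FDR = 0.00378), yet only 3 of 13 libraries with hCG lay below the median without it. The fitted value compares means, and 5 putative ruptured libraries (replicates 1, 5, 10, 11 and 12, at 17.5 to 99.3 TPM) lay above every library with hCG. The ratio of counts without to with hCG was 16.5 for Tcf21 (14 against 1, 95% exact interval 2.51 to 698) and 11.8 for Ogn (10 against 1, 1.68 to 512). These intervals cover counting error only, not the spread between libraries.

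Whether the difference between the sides itself changed with hCG was tested as the interaction of side and medium in 1 fit of all 54 libraries. Pdgfra passed, with a more negative difference between the sides post-hCG than without hCG (interaction −2.27, SE 0.74, FDR = 0.0417), and 8.91% of 10013 genes passed, 4.65% in this direction. Dcn had −1.96 (FDR = 0.114), Bgn −2.06 (FDR = 0.115), Pdgfrb −1.41 (FDR = 0.107), Lum −1.20, Fbn1 −0.46 and Mgp 0.52, and none of these passed. The fit was repeated 4 times, each time without the library of 1 group with the highest summed TPM of the 9 genes. The Pdgfra call was lost without replicate 1 of the putative ruptured side (FDR = 0.0669) and without replicate 4 of the unruptured side post-hCG (FDR = 0.0802), and also with no filter (FDR = 0.0657) and with limma on log2(TPM + 1) (FDR = 0.201). Dcn passed without replicate 7 of the putative unruptured side (FDR = 0.0499), and without replicate 13 of the ruptured side post-hCG both Dcn (FDR = 0.0479) and Pdgfrb (FDR = 0.0458) passed.

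Ratios within a library, taken as differences of log2 CPM, show whether pairs of these genes kept their proportion. They were compared where both genes averaged at least 10 counts in both groups, which gave 6 comparisons, with two-sided permutation tests and p-values adjusted over the 6. The ratio of Pdgfrb to Pdgfra on the unruptured side changed with hCG. Its lowest, median and highest log2 values were −1.01, 0.60 and 1.46 without hCG and −1.78, −0.23 and 0.42 with hCG, and none of the 12 libraries with hCG lay above the median without it. The means were 0.52 ± 0.66 (SD, n = 15) and −0.32 ± 0.63 (SD, n = 12), a difference of −0.84 (adjusted permutation p = 0.0131). Between the sides without hCG the same ratio differed by 0.48, with a mean of 0.99 ± 0.70 (SD, n = 14) on the putative ruptured side (adjusted permutation p = 0.0821).

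Taken library by library, Bgn was lower relative to Dcn on the putative ruptured side, but the group means did not show this. Mean CPM was 176 for Bgn and 183 for Dcn over the 15 putative unruptured libraries. Over the 14 putative ruptured ones it was 46.0 and 42.4. The edgeR log2FC, which compares means, was −1.93 for Bgn and −2.12 for Dcn. The log2 ratio of Bgn to Dcn was 0.18 ± 0.97 (SD, n = 15) on the putative unruptured and −1 ± 1.37 (SD, n = 14) on the putative ruptured side, a difference of −1.18 (adjusted permutation p = 0.036), and 3 of the 14 libraries of the putative ruptured side exceeded the median of the other. On log2(TPM + 1) the difference was −0.75 (adjusted permutation p = 0.0608). With hCG on the unruptured side the ratio was 0.99 ± 0.74 (SD, n = 12), a difference of 0.81 (adjusted permutation p = 0.0516, and 0.0422 on log2(TPM + 1)). For Mgp to Dcn the difference between the sides was −0.93 (adjusted permutation p = 0.0821). It passed, and was larger, on log2(TPM + 1) (−1.46, adjusted permutation p = 0.0303) and with a prior count of 0.5 (−1.62, adjusted permutation p = 0.0256). However, the median putative ruptured library held only 1.5 Mgp counts, and 3 of 14 held none. At such counts the ratio of Mgp to Dcn depends on the value added before taking logs. Whether the larger differences reflect more than that choice was not tested. With hCG the ratio differed by −0.46 (adjusted permutation p = 0.187), and by −0.79 on log2(TPM + 1) (adjusted permutation p = 0.0544).

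**Figure D3:**
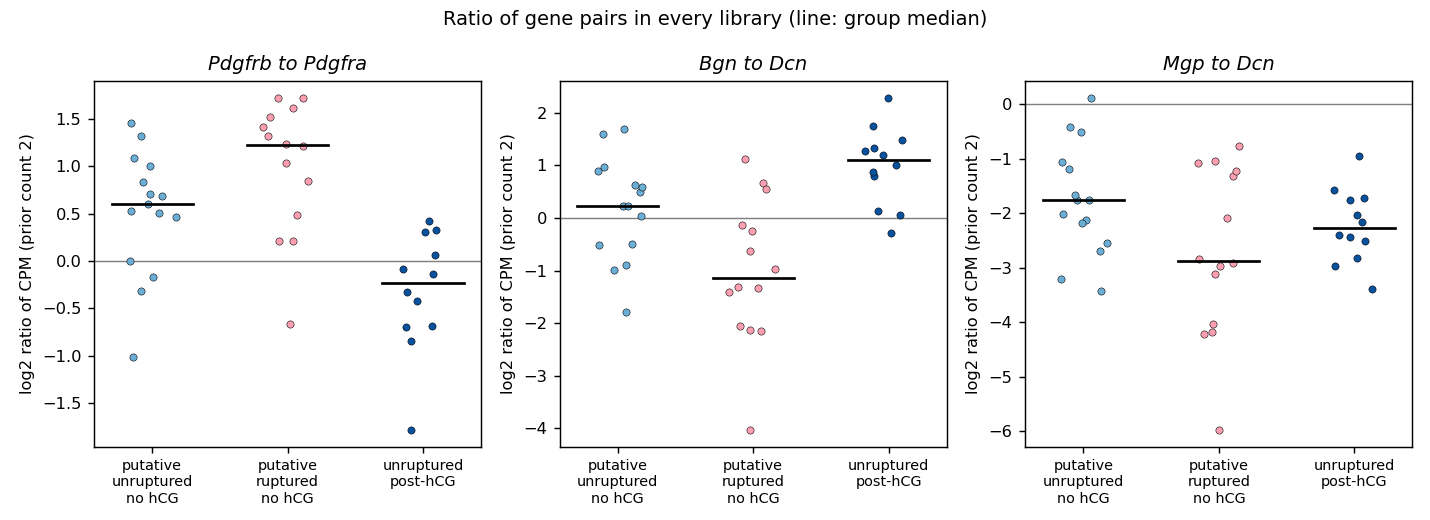
Log2 ratio of CPM for 3 gene pairs in every library of the 3 groups where both genes averaged 10 counts, with 1 point per library and a line at the group median. For Pdgfrb to Pdgfra, the points of the unruptured side post-hCG (−1.78 to 0.42) all lie below the median without hCG (0.60).

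Across the libraries of a group the levels of these genes were positively correlated. Pearson's r of log2 CPM was computed for each pair of genes that averaged at least 10 counts, with two-sided permutation tests adjusted over 51 pairs in 3 groups, and the ruptured side post-hCG had no such gene. On the putative ruptured side all 15 pairs of 6 genes passed, with a median r of 0.884 (0.743 to 0.961). On the putative unruptured side 14 of 21 pairs of 7 genes passed, with a median r of 0.619 (0.410 to 0.947), and on the unruptured side post-hCG 12 of 15 pairs did, with a median r of 0.749 (0.510 to 0.883). The r was above 0 for every pair. Over all pairs of genes with at least the same mean, the median r was between −0.00151 and 0.00127 in these groups, and between 5.78% and 6.61% of pairs had an r above 0.5. Libraries of a group differed in depth and may differ in cell content, which all pairs share. The part of these in the correlations was not tested.

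The strongest pair was Bgn with Fbn1 on the putative ruptured side (n = 14, r = 0.961, adjusted permutation p = 0.000255, Spearman's rho = 0.956, adjusted permutation p = 0.000383), and r was 0.942 without the 2 libraries farthest from the Bgn median. On the putative unruptured side the same pair had an r of 0.491 (n = 15, adjusted permutation p = 0.0733, rho = 0.496), and of the 6 pairs of Fbn1 only that with Pdgfrb passed there (r = 0.546, adjusted permutation p = 0.0439). That pair had an r of 0.205 without the 2 farthest libraries and a rho of 0.407 (n = 15, adjusted permutation p = 0.158). Bgn with Pdgfra was the strongest pair on the putative unruptured side (n = 15, r = 0.947, adjusted permutation p = 0.000255, rho = 0.914) and had an r of 0.872 without the 2 farthest libraries. The receptors co-varied with each other in all 3 groups, with an r of 0.744 on the putative unruptured side, 0.884 for the putative ruptured side and 0.749 on the unruptured side post-hCG. Without the 2 farthest libraries these were 0.755, 0.898 and 0.819.

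The genomic neighbours Dcn and Lum had an r of 0.776 on the putative unruptured side (n = 15, adjusted permutation p = 0.00255, rho = 0.843) and of 0.685 without the 2 farthest. Other pairs were much weaker without their extreme libraries. Dcn with Bgn there had an r of 0.619 (n = 15, adjusted permutation p = 0.0233), which dropped to 0.0862 without the 2 libraries farthest from the Dcn median. Its rho over all 15 libraries was 0.368 (adjusted permutation p = 0.201). In the median over pairs, leaving out the 2 farthest libraries gave 0.813 on the putative ruptured side, 0.598 for the putative unruptured and 0.295 for the unruptured side post-hCG. The co-variation post-hCG was thus much weaker without these libraries. Leaving out the extremes of 1 gene narrows its range, which can lower r by itself, so how far the relation rests on them was not settled. With Spearman's rho 5 of 15 pairs passed there, and 8 of 21 did for the putative unruptured and 15 of 15 for the putative ruptured side.

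**Figure D4:**
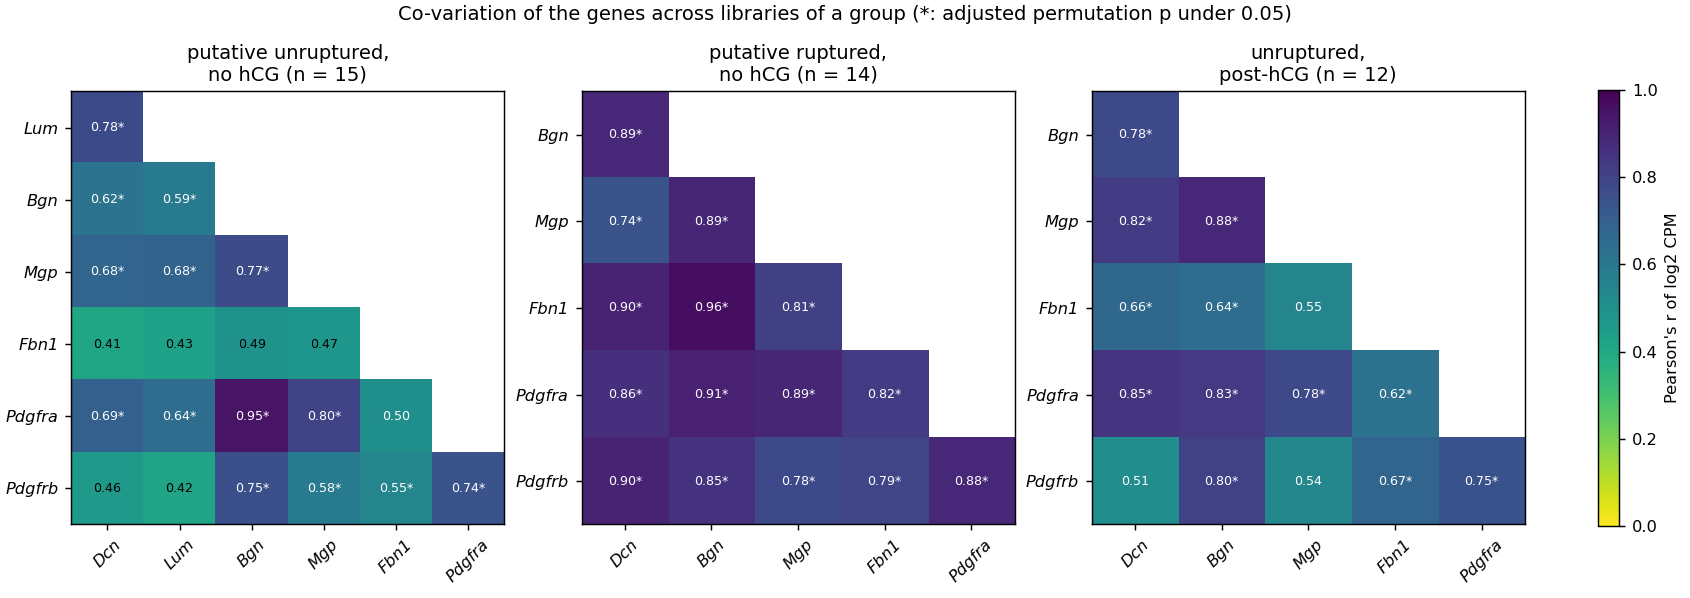
Pearson's r of log2 CPM for each pair of genes across the libraries of 3 groups, with the colour from 0 to 1 and an asterisk where the adjusted permutation p was under 0.05. The putative ruptured side (median 0.884) is the darkest panel, and the row of Fbn1 is the palest on the putative unruptured side.

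The genes outside the 9 whose log2 CPM most resembled each of them were sought among 8835 genes over all 54 libraries, with each group centred on its own mean, as a description with no test. Fibrillar collagen genes led for several. Bgn was most like Col1a2 (r = 0.915), Emilin1 (r = 0.896) and Col1a1 (r = 0.895), and Pdgfra most like Col3a1 (r = 0.862), Col1a1 (r = 0.852) and Col1a2 (r = 0.840). Dcn was most like Col3a1 (r = 0.857), Cdh11 (r = 0.843) and Serpinf1 (r = 0.831). Lum was most like Col1a2 (r = 0.819), Col6a2 (r = 0.813) and Enpep (r = 0.802), and Mgp most like Wisp1 (r = 0.814), Cd248 (r = 0.805) and Emilin1 (r = 0.804). For Fbn1 the order was Serpinf1 (r = 0.776), Col1a2 (r = 0.767) and Col1a1 (r = 0.741), and for Pdgfrb it was Sparcl1 (r = 0.816), Col1a2 (r = 0.814) and Col15a1 (r = 0.797). Tcf21 and Ogn, with few counts, reached 0.638 (Rarres2) and 0.545 (Lama4) outside the 9. Measured in the same way, Tcf21 had an r of 0.674 with Lum, and Fbn1 of 0.747 with Bgn.

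The wider gene lists were described by their counts. Of 20 further fibroblast and stroma markers, 12 were tested without hCG and 10 were lower on the putative ruptured side, with Col3a1 at −2.44, Mmp2, a gelatinase, at −2.33, Col1a2 at −2.01 and Col1a1 at −1.89. Post-hCG 8 of 10 tested were lower on the ruptured side, with Col3a1 at −4.94. With hCG on the unruptured side 7 of 12 fell and 1 rose: Col1a1 fell (−1.60) and Col1a2 fell (−1.59), and Mmp2 rose (1.61, FDR = 0.00484). Of the partners of fibrillin-1 in microfibrils and elastic fibres, 3 of 12 tested were lower and 2 higher on the putative ruptured side, with Fbln2 at −1.70 and Fbln1 at 1.60. Post-hCG 5 of 10 were lower and 2 higher on the ruptured side, with Ltbp4 at −3.54, Emilin1 at −3.16 and Ltbp1 at 0.80. With hCG on the unruptured side 2 of 12 tested fell, Fbn2 (−2.50) and Mfap2 (−1.78), and 4 rose, among them Efemp1 (3.89) and Ltbp1 (2.82). Over all genes tested, 17.8% passed between the sides without hCG (8.96% lower) and 21.4% post-hCG (11.3% lower). With hCG on the unruptured side 53.1% passed (27.7% lower). The same shares apply to the lists below.

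Of 13 other small leucine-rich proteoglycans, most were at or near 0, with a summed level of at most 10.5 TPM in any library. In each comparison of the sides 2 were tested and neither passed. With hCG on the unruptured side Omd (osteomodulin) fell, with a log2FC of −2.88, and Nyx (nyctalopin) rose, with 1.19. The receptors' ligands had a summed level of 6.48 to 36.2 TPM. Pdgfa was lower on the putative ruptured side (−0.76, FDR = 0.0129), 1 of 3 ligands tested, and with hCG on the unruptured side all 3 tested fell, with Pdgfc at −1.16, Pdgfa at −1.14 and Pdgfd at −0.46.

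Markers of other cell types also differed between the groups, and their part in the results was not tested. The summed level of 8 immune markers ran from 0.45 to 164 TPM on the putative unruptured side (median 34.2), from 0.08 to 38.1 on the putative ruptured side (median 1.23), from 1.27 to 103 on the unruptured side post-hCG (median 14.3) and from 0.30 to 4.43 on the ruptured side post-hCG (median 0.96). Lyz2, the only one tested between the sides without hCG, had a log2FC of −2.87, and Adgre1 and Tyrobp were at 0 in all ruptured libraries post-hCG. Smooth muscle markers had medians of 35.0, 5.43, 4.59 and 2.53 TPM in the same order (5.61 to 66.5, 2.25 to 46.3, 2.99 to 24.4 and 0.38 to 4.74). Acta2, the 1 tested of 8, was lower on the putative ruptured side (−1.53) and fell with hCG on the unruptured side (−2.81), and Cnn1 was at 0 in all putative ruptured libraries. Pericyte markers had medians of 10.7, 7.97, 13 and 3.45 TPM (1.84 to 29.5, 2.53 to 16.0, 2.03 to 27.5 and 1.29 to 9.87), with Higd1b at 0 in every library. Abcc9, the only one tested between the sides without hCG, was lower on the putative ruptured side (−1.21, FDR = 0.0267), and with hCG on the unruptured side it fell (−1.02) and Notch3 rose (0.98). Endothelial markers had medians of 8.97, 4.15, 18.1 and 12.2 TPM (1.59 to 20.5, 1.63 to 13.9, 5.83 to 32.2 and 4.82 to 25.0). None was tested between the sides without hCG, neither of the 2 tested post-hCG passed, and Cdh5 rose with hCG on the unruptured side (1.40).

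Steroid-producing theca cells lie beside the stroma. Of their 8 markers 7 were tested without hCG: Star (−2.06), Aldh1a1 (−1.93) and Cyp11a1 (−1.70) were lower and Hsd3b1 (1.44) was higher on the putative ruptured side. Granulosa cells make several of these transcripts too. With hCG on the unruptured side 5 of 7 rose and Aldh1a1 fell (−4.01). Between the sides post-hCG 6 were tested. Lhcgr (1.28) and Hsd3b1 (0.56) were higher on the ruptured side, and Aldh1a1 (−4.25) and Star (−0.95) were lower. For the interaction of side and medium 7 were tested with edgeR, where 8.91% of all genes passed. The side difference was more negative post-hCG for Insl3 (−4.33, FDR = 0.0464) and Aldh1a1 (−2.33, FDR = 0.0416). For Cyp11a1 it was more positive (2.07, FDR = 0.01135), and 4 did not pass. The study lists Insl3 among its top genes of the unruptured side post-hCG. Cyp17a1, the enzyme that defines androgen-making theca cells, was at 0 in every ruptured library post-hCG. The summed median of the 8 markers was 15048 TPM on the unruptured and 18458 TPM on the ruptured side post-hCG. Granulosa markers went the other way from the 9 genes between the sides without hCG, with 7 of 8 tested higher on the putative ruptured side, among them Hsd17b1 (3.70) and Cyp19a1 (3.22). Their summed median was 2852 TPM on the putative unruptured and 10883 TPM on the putative ruptured side, and 1777 and 1791 TPM post-hCG. Post-hCG 3 of 5 tested were higher on the ruptured side (Inhbb at 1.49, Serpine2 at 1.47 and Nr5a2 at 0.53) and none was lower.

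**Figure D5:**
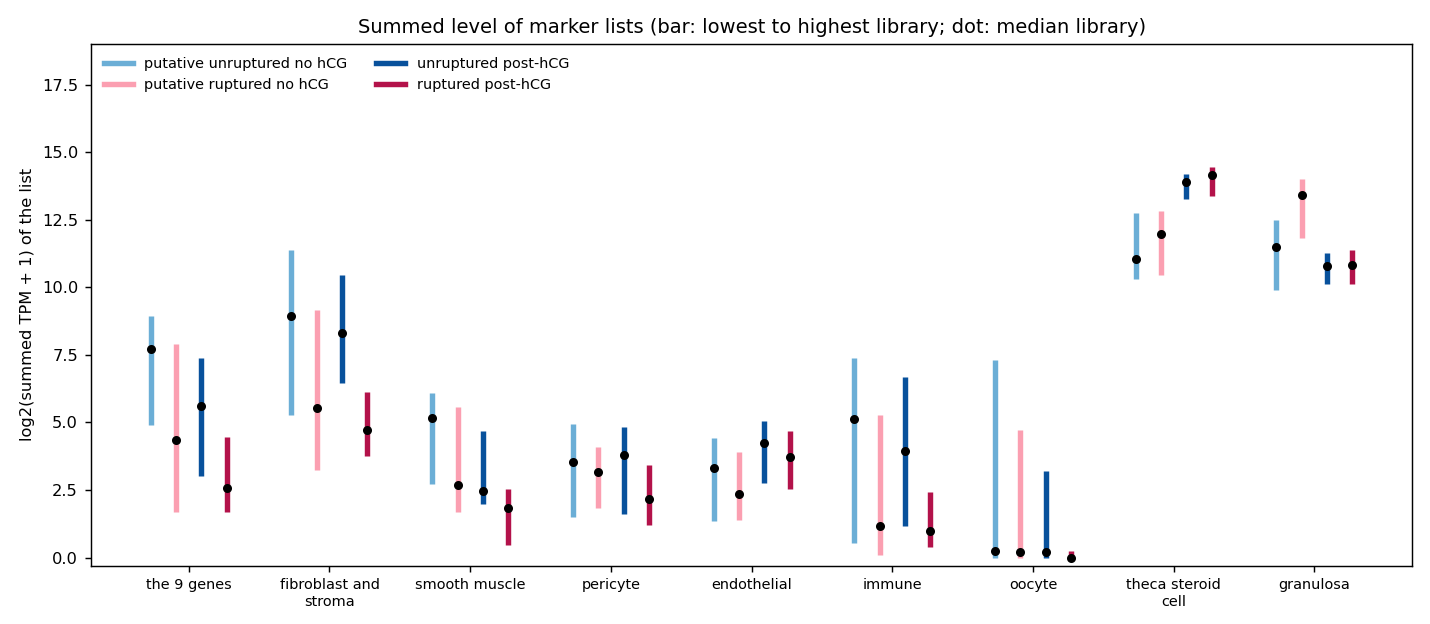
Summed level of the 9 genes and of 8 marker lists, as log2(summed TPM + 1), with bars from the lowest to the highest library and dots at the median library of each group. The medians of the 9 genes (212, 19.6, 48.0 and 4.89 TPM) have the same order of groups as those of the fibroblast and stroma markers (490, 45.9, 315 and 25.1 TPM).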

How the data were processed

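Smart-Seq2 libraries of single follicle sides were read from a table of estimated counts and a table of TPM values. The authors aligned reads to GRCm38 with HISAT2, removed batch effects from the counts using ComBat-seq and made TPM values from them. The counting program, annotation and batches are not given in the sources used here, nor whether the deposited estimated counts precede the correction. Of the non-zero counts 72.2% were whole. The deposited TPM values are counts scaled by transcript length and by library. The submitters' processing notes list Seurat 4.

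Groups came from the labels. The 9 genes, the 13 further lists and the tests were chosen with earlier results of these data known. Counts were rounded, put through edgeR's expression filter (at least 10 counts, 15 in total) and normalised by TMM. The test was the quasi-likelihood F-test of edgeR 4.0.16 (R 4.3.3) at a Benjamini-Hochberg FDR of 0.05, run separately in 4 comparisons and over all 4 groups for the interaction. Named from each further list were up to 4 genes per comparison, those with the largest log2FC past the FDR and a mean of at least 1 CPM. Correlations and ratios used log2 CPM (prior count 2) and 100000 permutations, so that the smallest p is 1e-05, in Python 3.11.15 with numpy 2.4.6 and scipy 1.17.1; likeness used genes with a mean of at least 5 CPM. Intervals are exact (Clopper-Pearson) and cover counting error only. Alternatives were DESeq2 1.42.0, no filter, RLE size factors, scaling by library totals alone, a mean of at least 20 counts, limma 3.58.1 on log2(TPM + 1) or log2(TPM + 0.1), all 4 groups in one fit, the replicate number as a block, refits without single libraries (each in turn between the sides, and elsewhere that of each group with the highest summed TPM of the 9 genes) and, for ratios, a prior count of 0.5. The tests were checked on simulated data. No pair of libraries of a group agreed within sampling noise. Nothing says that libraries of a group came from separate mice, so p-values measure the spread between these libraries. Their totals, 1497138 to 2834794 counts, limit what can be seen of Ogn and Tcf21.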

Additional observations from a re-analysis of the deposited data

Results flagged for a closer look

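Pdgfra stood out because the difference between its sides was not the same in both media. The difference post-hCG minus the difference without hCG was −2.27 on the log2 scale (edgeR quasi-likelihood test of the interaction, SE 0.74, FDR = 0.0417). The call was lost in 2 of 4 refits without 1 library (FDR = 0.0669 without replicate 1 of the putative ruptured side and 0.0802 without replicate 4 of the unruptured side post-hCG), with no filter (FDR = 0.0657) and with limma on log2(TPM + 1) (FDR = 0.201). Its log2FC between the sides was −1.65 without hCG and −3.93 post-hCG, each from a fit of its own. The level on the unruptured side had a median of 2.70 TPM without and 1.87 TPM with hCG, while that on the ruptured side was 0.53 and 0 TPM. The 13 ruptured libraries post-hCG held 30 Pdgfra counts in all, 16 of them in replicate 4.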

How the results depend on the processing

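In the comparisons of the sides without hCG and of the media on the unruptured side, no alternative moved the number of the 9 genes called by over 1.5 times. For the sides after hCG, 4 were called, 8 with DESeq2, 8 with no filter and 2 with a mean of at least 20 counts, which tested 2. With hCG on the ruptured side 1 was called, 7 with DESeq2, 9 with no filter, 2 with a mean of at least 20 counts and 7 with all 4 groups in one fit, since these settings tested other genes. For the interaction 1 was called, 0 with no filter, 0 with limma on log2(TPM + 1) and 2 with limma on log2(TPM + 0.1). On log2(TPM + 1) the interactions of Lum (0.40) and Fbn1 (0.077) changed sign, and neither had passed. The Pdgfra difference with hCG on the unruptured side was −0.061 with library totals only and −0.17 and 0.28 in its 2 refits without 1 library. Leaving out each library in turn, 6 to 7 genes were called for the sides without hCG (29 refits) and 3 to 4 for the sides after hCG (25 refits). In the other comparisons only the library of each group with the highest summed TPM of the 9 genes was left out in turn, which gave 6 for the media on the unruptured side and 1 for those of the ruptured side (2 refits each) and 0 to 3 for the interaction (4 refits). The 3 after hCG arose where Pdgfra (without replicate 4 of the ruptured side) or Pdgfrb (without replicate 13) fell under the filter.

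Co-varying pairs numbered 8 in place of 14 with Spearman's rho for the putative unruptured side, and for the unruptured side post-hCG 5 with Spearman's rho and 7 on log2(TPM + 1) in place of 12. Of the ratios 2 passed, and 4 with a prior count of 0.5. The cause of these changes was not tested.

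Scaling by library totals only moved the median log2FC of all genes to −0.14 for the sides after hCG, −0.25 and −0.33 for hCG on the unruptured and ruptured sides and −0.11 for the interaction. Calls then split into 585 higher and 905 lower for the sides without hCG (801 and 812 with TMM), 397 and 1830 for the sides after hCG (862 and 971), 1455 and 3844 for the media on the unruptured side (2365 and 2582), 1376 and 4242 for those of the ruptured side (2532 and 2597) and 230 and 660 for the interaction (426 and 466).

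Same-numbered libraries did not deviate together: their correlation was over 0.1 in 3 of 14 pairs of the sides without hCG, 5 of 12 after hCG, and 2 of 12 and 4 of 13 for the media on the unruptured and ruptured sides, and 2, 2, 1 and 2 libraries correlated best with their own number. With the replicate number as a block, 5, 3, 6, 1 and 1 of the 9 genes were called in the 5 comparisons, where Lum without hCG had an FDR of 0.053 and Pdgfrb after hCG was under the filter.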

Other observations

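Without hCG, genes of the expanding cumulus differed between the sides in the direction opposite to the stroma genes. Of 5 listed, 3 were tested without hCG and all 3 were higher on the putative ruptured side: Has2, the hyaluronan synthase of the cumulus matrix, by a log2FC of 1.92, Tnfaip6, which crosslinks that matrix, by 1.40, and Vcan, a large hyaluronan-binding proteoglycan, by 1.00 (edgeR, FDR = 6.79e-05, 0.041 and 3.03e-06). Post-hCG 1 of 2 tested, Vcan, was higher on the ruptured side, by 1.20. Has2 was under the filter between the sides post-hCG but entered the fit of all 4 groups. In that fit its side difference was more negative post-hCG than without hCG (edgeR interaction −3.59, FDR = 0.000662). The value thus rests in part on libraries where Has2 had too few counts to pass the filter. With hCG, Vcan rose by 3.18 on the unruptured and 3.39 on the ruptured side.

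Of 8 surface epithelium markers 2 were tested without hCG and neither passed, and Krt8 was the only one that fell with hCG, by a log2FC of −0.64 on the unruptured and −1.17 on the ruptured side. The summed level of these markers had medians of 7.80, 7.48, 4.90 and 2.91 TPM on the putative unruptured, putative ruptured, unruptured post-hCG and ruptured post-hCG sides. None of the 8 oocyte markers passed the expression filter in any comparison, and their summed medians were 0.20, 0.15, 0.15 and 0 TPM in the same order.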
